A study of Linum usitatissimum with 4 samples.

Results

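Lus10017173.g, below Lus10017173, is a flax gene on chromosome Lu3 whose family description in the authors' deposited tables is suppression of tumorigenicity 5 (ST5). It was selected on the number of its listed cytosines, which rests on the authors' q-values and methylation differences: 25 of the 1894 listings in the 9 tables, at 19 of 1648 cytosines. Its members are all rows that carry its identifier, and any row of the CG table of 5-azacytidine plus heat between its first and last positions, of which there were 0. It is 1 of 389 genes with a listing. All 25 listings were in the CHH context (H is A, C or T), and all 25 were lower in the treated library than in the control library. Over all genes, CHH made up 123 of 184 listings for heat and 455 of 566 for 5-azacytidine. For 5-azacytidine plus heat it made up 1018 of 1144. Of these CHH listings 110, 425 and 994 were lower. The listings chose the gene, so their number, context, direction and size are a description, and no test was made of them.

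The libraries come from bisulfite sequencing of shoot apices of flax (Linum usitatissimum, cultivar JRF-2), in which unmethylated cytosines are read as thymine and methylated ones as cytosine. All seedlings were 21 days old and were grown at 22 ± 2 °C in 16 h of light and 8 h of dark. Heated seedlings had 40 ± 2 °C at 70% relative humidity for 4 h on 5 days running and then went back to the growth room; the labels do not say how long they recovered before sampling. For the 5-azacytidine group, seeds were soaked in 1 mM of the drug for 24 h in the dark, with no heat later. The 5-azacytidine plus heat group had both, and control seedlings had neither. Each group gave 1 library, from apices of 10 seedlings pooled before DNA extraction. A difference below is therefore between 2 libraries with no replicate check, and the read depth behind each value is unknown. The pool also mixes the tissues of an apex segment of 3 to 5 cm, so a shift in the share of cell types and a shift within cells cannot be told apart.

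CHH methylation is the asymmetric kind in plants: its complementary strand offers no matching cytosine to copy after DNA replication. In Arabidopsis it is laid down anew by DRM2, which small RNAs guide to its sites, and by CMT2, and it is found mostly over transposons and other repeats. 5-Azacytidine is a cytidine analogue that traps DNA methyltransferases once it is built into DNA. The ST5 family is named for a human gene, also called DENND2B, whose protein carries a DENN domain and activates Rab proteins, the small GTPases that direct vesicle traffic. What the flax protein does is not known from these data. The family text carries the count 1 of 4, and Lus10017173 is the only listed gene with it.

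The 19 cytosines lie between positions 23793370 and 23795420 of Lu3, a span of 2050 bp. These are coordinates of the authors' own build, which was not identified here. All 25 distances in the authors' deposited tables imply 1 gene start, at 23802874, and they grow towards lower coordinates. Positive distances were taken as downstream, which was assumed. On that reading the distances are as for a gene read from the minus strand. The sites then sit 7454 to 9504 bp downstream of that start. Whether they fall within the gene or beyond its end was not determined, since no gene model was used here. Neighbouring cytosines were a median of 78.5 bp apart, with gaps of 1 to 705 bp. Splitting at gaps over 200 bp, a limit chosen after the positions were seen, gave 4 stretches of 2, 8, 2 and 7 cytosines, counted from the far end towards the gene start.

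Heat alone had 2 listed cytosines, both in the stretch nearest to the gene start and 27 bp apart. The authors' deposited table gives -16.8 points at 7454 bp (23795420, q = 0.0197), where points are percentage points of methylation, treated minus control. At 7481 bp (23795393) the authors' deposited table gives -9.31 points with q = 0.00456. The site with the smaller fall had the smaller q-value. Both were lower in the heated library than in the control library, where 89.4% of the 123 CHH listings of that comparison were lower.

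5-Azacytidine alone had 6 listed cytosines, spread over 1255 bp in 2 of the 4 stretches. The lowest value in the authors' deposited table was again at 7454 bp, with -17.1 points (q = 0.0074). The highest was -5.34 points at 7686 bp (23795188, q = 0.0299), so the largest and smallest falls of this comparison stood 232 bp apart. In the second stretch, the authors' deposited table gives -12.1 points at 8709 bp (23794165), which had the smallest q-value of the 6, 0.00406. The other sites there had -10.8 points at 8510 bp, -5.59 points at 8433 bp and -7.39 points at 8318 bp in the authors' deposited table. Larger and smaller falls thus stood side by side. All 6 were lower than control, against a background of 93.4% of the 455 CHH listings of the comparison.

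5-Azacytidine plus heat had 17 listed cytosines, the most of the 3 comparisons, and was the only one with listings in all 4 stretches. All 17 were lower than control, and 97.6% of the 1018 CHH listings of this comparison were. The lowest was once more the site at 7454 bp, with -16.2 points in the authors' deposited table (q = 0.0115). The highest was the farthest site, -5.20 points at 9504 bp (23793370, q = 0.0173). The remaining 15 ran from -11.6 to -5.51 points in the authors' deposited table. In this comparison the site at 7454 bp therefore stood apart from the rest by 4.58 points. The smallest q-value in the authors' deposited table, 0.00389, belonged to the site at 8709 bp, as it did for 5-azacytidine alone.

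By stretch, the 2 far cytosines had -5.20 and -7.87 points (9425 bp) for 5-azacytidine plus heat in the authors' deposited table and were listed for no other treatment. The second stretch, 403 bp long, held 8 of the 17 listings. Its median was -8.60 points. Beside the 4 sites it has in common with 5-azacytidine alone, it had -9.23 points at 8720 bp, -7.83 points at 8701 bp and -7.97 points at 8588 bp in the authors' deposited table. Adjacent bases at 8318 and 8317 bp had -7.08 and -10.6 points in the authors' deposited table. The strand of each is not known. The third stretch, of 2 cytosines, had -9.49 points at 8061 bp and -8.39 points at 7965 bp in the authors' deposited table and was listed for this treatment only. In the stretch nearest to the start, beside the site at 7454 bp, the authors' deposited table gives -5.58 points at 7566 bp, -9.80 points at 7660 bp, -8.71 points at 7684 bp and -5.86 points at 7693 bp. A site missing from a list may have missed the authors' limits or may not have been tested by them, and is not shown to be unchanged. These differences in listing between treatments were therefore not tested.

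**Figure D1:**
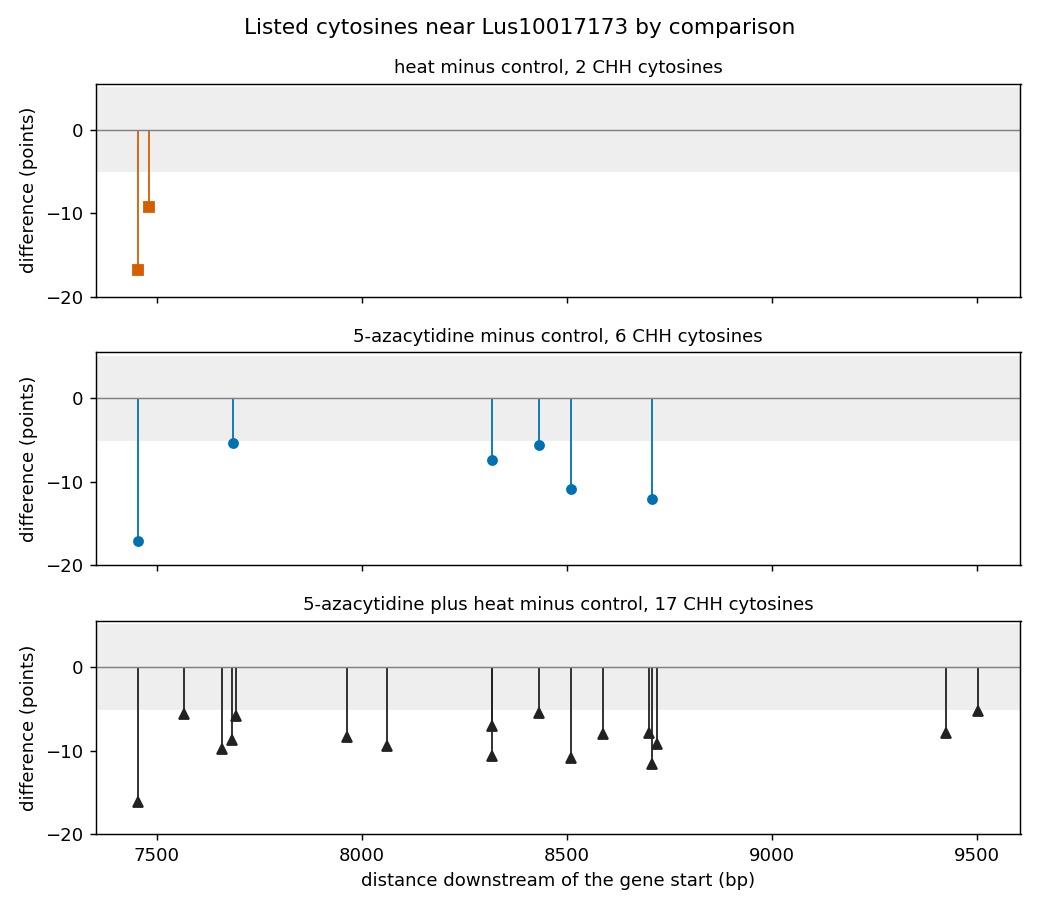
Methylation difference (percentage points, treated minus control, vertical axis) at each listed CHH cytosine against its distance downstream of the Lus10017173 start (bp, horizontal axis), with a panel per treatment; the grey band marks differences under 5 points, where nothing is listed. All 25 points lie below the band, and the lowest in every panel is at 7454 bp.

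The comparisons use the same control library, so values at a cytosine listed more than once are not independent, and a low or high control reading would enter each of them. At 7454 bp, the cytosine listed for every treatment, the authors' deposited tables give -16.8 points for heat, -17.1 points for the drug alone and -16.2 points for 5-azacytidine plus heat. These span 0.929 points. The other 4 repeated cytosines had values for 5-azacytidine with heat and for the drug alone. At 8709 bp the authors' deposited tables give -11.6 points with heat and -12.1 points without. The site at 8510 bp had -10.9 points with heat and -10.8 points without in the authors' deposited tables. For 8433 bp the authors' deposited tables give -5.51 points with heat and -5.59 points without, and for 8318 bp they give -7.08 points with heat and -7.39 points without. Within each of these 4 sites the values lay 0.0554 to 0.500 points apart, while between the 4 sites they ran from -12.1 to -5.51 points. Of the 14 cytosines listed once, 12 were listed for 5-azacytidine plus heat, 1 for 5-azacytidine (7686 bp) and 1 for heat (7481 bp).

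**Figure D2:**
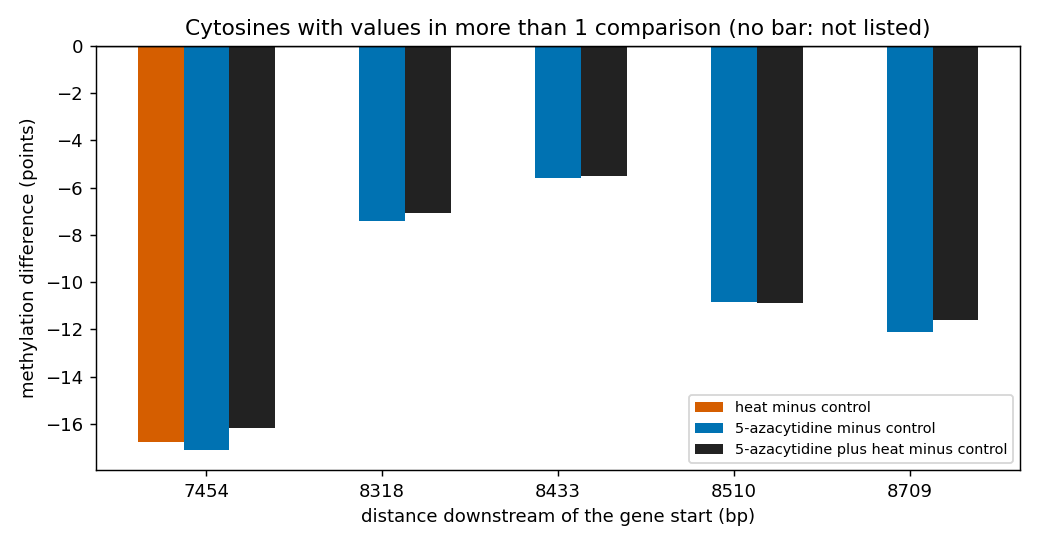
Methylation difference (percentage points, treated minus control, vertical axis) at the cytosines with values in more than 1 comparison, by distance downstream of the gene start (bp, horizontal axis); bars from left to right are heat, the drug alone and the drug with heat, and no bar means not listed. Bars of 1 site differ by at most 0.929 points, and all comparisons use the same control library.

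The sizes of these differences were set beside those of all listed CHH cytosines. For heat, the median at the gene was -13.0 points (n = 2 sites) and the median of all CHH listings was -10.3 points. For 5-azacytidine it was -9.11 points (n = 6), and the median of all CHH listings was -9.42 points. For 5-azacytidine plus heat it was -8.39 points (n = 17), and the median of all CHH listings was -9.24 points. The medians of all CHH listings include higher sites, which the gene lacks. Over lower CHH listings alone they were -11.0 points for heat, -9.67 points for 5-azacytidine and -9.34 points for 5-azacytidine plus heat. Differences of at least 10 points made up 1 of 2, 3 of 6 and 4 of 17 sites of the gene in these comparisons, where the shares of all CHH listings were 58.5%, 47.0% and 43.1%. At 7454 bp, the lowest site of the gene, 23 of 123, 71 of 455 and 152 of 1018 CHH listings had an absolute difference at least as large, and the lists reach absolute differences of 93.3, 92.9 and 93.8 points.

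The authors' q-values were read in the same way. Below 0.01 there were 1 of 2 sites for heat, 2 of 6 for the drug alone and 1 of 17 for 5-azacytidine plus heat, where 34.1%, 32.1% and 27.6% of all CHH listings were. None of the 25 listings had a q-value below 0.001. The share of all CHH listings below 0.001 was not worked out, so this count has no background beside it. The gene's share of the CHH listings was 1.63% for heat, 1.32% for the drug alone and 1.67% for 5-azacytidine plus heat, a description only, since the number of listings chose the gene. The rise in listed sites over these treatments, 2, 6 and 17, went with the length of the lists, 123, 455 and 1018. List length can depend on depth, which is unknown, and its part in the counts was not tested.

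**Figure D3:**
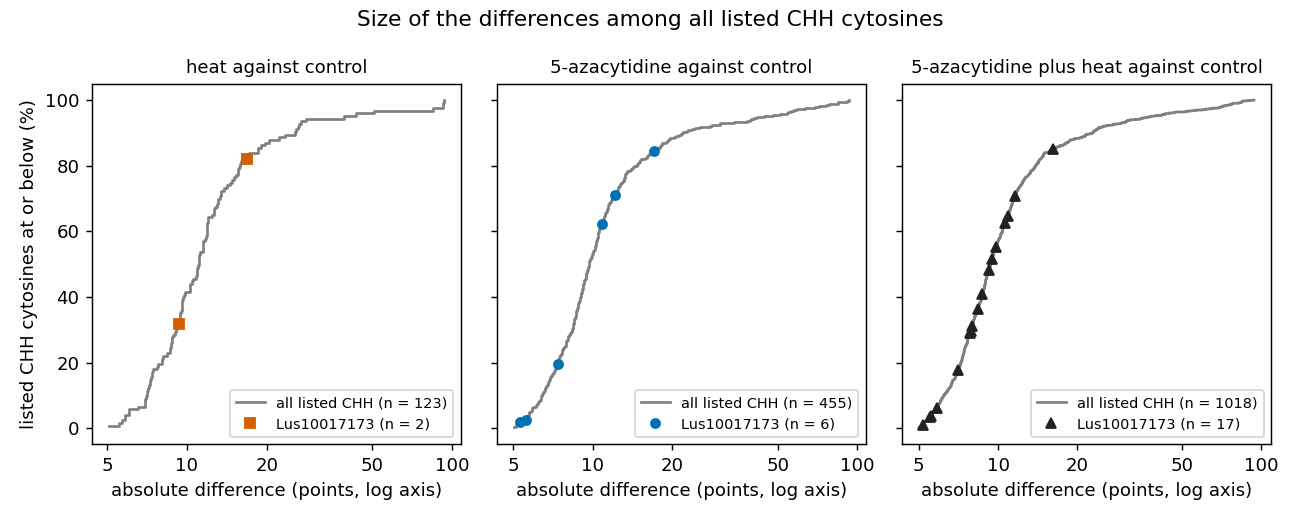
Share of listed CHH cytosines (percent, vertical axis) at or below a given absolute methylation difference (percentage points, log axis, horizontal) in a panel per treatment, each against control; grey lines are all listed CHH cytosines and symbols are those of Lus10017173. The rightmost symbol of each panel is the site at 7454 bp, with differences of -16.8, -17.1 and -16.2 points, and the grey lines run on to 93.3, 92.9 and 93.8 points.

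By number of listings Lus10017173 was among the upper genes of the series, behind 12 genes and level with 1, where the median gene had 2 and the longest list was 73. Of the 104 genes with at least 5 listings, 65 had lower sites alone and 46 had lower CHH sites alone, as Lus10017173 did. Genes were ranked by how alike their listing counts were over 18 cells, 9 tables by 2 directions, with the cosine of the counts. Many genes were close to it, with a median cosine of 0.959 over the other genes with at least 5 listings and 10 of them above 0.99. The nearest was Lus10012486 on Lu2, which has no family description (cosine 0.998), with 10 lower CHH listings 38266 to 40162 bp downstream of its start. Its listings were 1 for heat, 2 for the drug alone and 7 for 5-azacytidine plus heat, and its median was -8.74 points. The third was Lus10006013 on Lu5, also with no family description (cosine 0.995), with 54 of 55 listings lower and a median of -8.91 points.

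The second most alike gene, Lus10001964 (cosine 0.996), is also the neighbour on Lu3. It is described as related to inosine-5'-monophosphate dehydrogenase, the enzyme of the rate-limiting step of guanine nucleotide synthesis. Its implied start at 23767835 lies 35039 bp from that of Lus10017173, and distances from the 2 starts grow towards each other. This is as for convergent genes if positive distances are downstream, as assumed. Between the starts there were 36 listings at 28 cytosines, 25 of Lus10017173 and 11 of Lus10001964. All 36 were lower CHH sites, as were most listings of each comparison over all genes. The sites of Lus10001964 covered 1646 bp, and its nearest lay 8562 bp from the farthest site of Lus10017173. Its 11 values ran from -11.1 to -6.29 points in the authors' deposited tables, with 1 listing for heat, 2 for the drug alone and 8 for 5-azacytidine plus heat. At 23784311 the authors' deposited tables give -9.07 points for heat and -9.62 points for 5-azacytidine, and this cytosine of Lus10001964 was not listed for 5-azacytidine plus heat. On the other side of Lus10017173 the next listed site on Lu3 was 1584282 bp away. Since a site is given to the nearest start, the 2 clusters are split by distance and not by function.

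**Figure D4:**
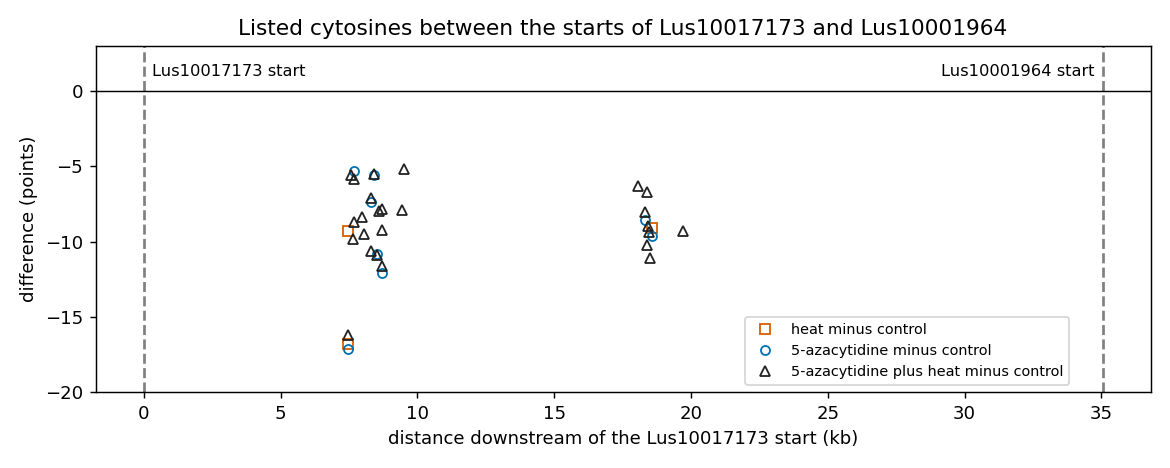
Methylation difference (percentage points, treated minus control, vertical axis) of listed cytosines against distance downstream of the Lus10017173 start (kb, horizontal axis), with a symbol per treatment; dashed lines mark the starts of Lus10017173 and Lus10001964. The 36 listings form 2 clusters, and all lie below 0.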

How the data were processed

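Trimmomatic, FastQC, BWA, MethylDackel and methylKit were used by the authors, per the submitters' processing notes; no source used here names their versions, settings or the genome build. In all, 9 tables were deposited, 3 treatments against control in 3 contexts. Each row is 1 cytosine with the authors' p-value and q-value and a methylation difference, which is a deposited score in percentage points; treated minus control was assumed for its sign, after methylKit's convention, and every direction would turn round if it were coded otherwise. Per the file headers, rows also give a distance to a gene start. Positive distances were assumed to be downstream, and such sites would be upstream if the sign were coded otherwise. Deposited q-values reach 0.0499 and absolute differences go down to 5.01 points, which points to limits of 0.05 and 5 points. Positions are deposited starts and may be off by 1 bp.

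Rows of Lus10017173 were taken by identifier. In the CG table of 5-azacytidine plus heat, 53 of 101 rows have no gene identifier and the rest were not trusted, so position was used. The nearest row of that table on Lu3 was 2684099 bp away. Of the 25 listings, 19 carry the ST5 text and 6 another protein hit, and 3 cytosines have both in different tables, so the shared identifier and start were used. Strand entries (8 plus, 17 minus) conflict at 3 cytosines and were not used.

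No test across samples was possible with 1 library a group and no coverage. Sites named are those listed in 2 or more comparisons, the highest and lowest per comparison and context, the smallest q-value per comparison, and the first and last positions; the rest were added as values after they were seen. The 3 genes most alike were taken among genes with at least 5 listings. The gene, rules and lists were chosen with earlier results of these data known. The cosine ranking was run on simulated counts with a planted multiple of a gene's counts, which must rank first. How well the ranking separates genes in these data was not tested. Python 3.11.15, pandas 2.3.3, numpy 2.4.6 and scipy 1.17.1 were used.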

Additional observations from a re-analysis of the deposited data

How the results depend on the processing

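With a q-value below 0.01, the listings near Lus10017173 were 1 for heat, 2 for the drug alone and 1 for 5-azacytidine plus heat, against 2, 6 and 17 without it, and below 0.001 they were 0, 0 and 0. With differences of at least 10 points they were 1, 3 and 4. The order of the treatments by number of sites therefore rests on sites with q-values of 0.01 or more. The median for 5-azacytidine plus heat was -11.6 points with a q-value below 0.01 and -11.2 points with differences of at least 10 points, against -8.39 points. For 5-azacytidine it was -14.6 and -12.1 points under these limits, against -9.11 points, and for heat it was -9.31 and -16.8 points, against -13.0 points. Each limit keeps fewer sites. The q-value limit drops the largest fall, at 7454 bp, for heat and for the drug with heat. For 5-azacytidine alone it keeps the 2 largest falls, -17.1 and -12.1 points. All sites that any limit left were lower and in the CHH context, as they had to be, since every listing of the gene was. Counting a CG or CHG with a listed cytosine on each strand once, or leaving out the CG table of 5-azacytidine plus heat, gave the values as reported, because the gene has no site in those contexts. Under a q-value below 0.001 no median or share of the gene's sites could be given, and the share of all CHH listings was not worked out. No paired analysis was possible because each group is 1 library and no test was made. No replicate could be left out. Depth per site is unknown, so which smaller differences the lists could have held is not known.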
